A study of Oryza sativa with 8 samples.

Results

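The shoots of mhz7 rice seedlings kept in ethylene were compared with wild-type (WT) shoots kept in ethylene, across every gene on the array. The comparison rests on 2 of the 8 Affymetrix rice arrays of the study, the columns titled for mhz7 and WT shoots in ethylene, and each is 1 array without a replicate. WT and mhz7 seedlings were handled alike: seeds germinated for 2 days in dark, warm water (37 °C), and dark-grown seedlings aged 3 days were held for 8 h at 28 °C in 10 ppm ethylene or in air before roots and shoots were taken for RNA. The other 6 arrays hold mhz7 and WT shoots in air, roots in air and roots in ethylene, which gave 3 further mhz7 and WT pairs that share no array with the pair in ethylene shoots. The cultivar, the mutant allele and the number of seedlings per array were not given in the sources used here.

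Ethylene is a gaseous hormone that is bound by receptors in the endoplasmic reticulum membrane. Without ethylene the receptors hold back EIN2, a membrane protein that passes the signal on to the transcription factors of the EIN3 and EIL family, and with ethylene that block is lifted. The gene table gives MHZ7 as another name of EIN2. In dark-grown rice ethylene is known to inhibit root growth and to lengthen the coleoptile, the sheath of the young shoot.

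Signals were scaled so that each array had the same trimmed mean (500), and signals under 100, the floor, were set to 100. Differences are mhz7 minus WT on the log2 scale, where 1 is 2-fold. A probe set was called higher or lower where the signals differed at least 2-fold and the higher of them reached 200. Such a call is a rule of size, with no p, because 1 array per group leaves no spread between replicates.

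In ethylene, 625 of 57258 probe sets were called higher in mhz7 shoots (1.09%) and 489 lower (0.854%). These covered 754 genes, and 291 of the 1114 called probe sets had no gene assigned to them alone. Differences of at least 4-fold were found in 129 probe sets in the higher and 83 in the lower direction, and of at least 8-fold in 26 and 15. With the brightest probe set taken for each gene and a mean of 200 or more over all arrays required, 13839 genes were measured, of which 385 were higher (2.78%) and 274 lower (1.98%), the shares against which the counts of the gene lists below are set. The median difference over the measured genes was 0, and the middle 90% of them lay between -0.58 and 0.70. Genes called higher had a median signal of 370.0 in WT and 1084 in mhz7, and genes called lower 1571 in WT and 492 in mhz7. Of the measured genes, 104 lay just past the 2-fold line, within 1.1-fold of it, and 188 just short of it. Because the RNA came from whole shoots, fewer cells of a type and less RNA per cell cannot be told apart.

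Shoot identity was alike on the 2 arrays. The 445 probe sets that were over 10-fold brighter in WT shoots than in WT roots in air stood at a median of 94.6% of their WT air signal on the WT ethylene array and at 97.8% on the mhz7 ethylene array. The 166 root-abundant probe sets, chosen the same way, stood at 2.85% of their root signal in WT and 2.52% in mhz7, with summed signals of 47433 and 32783. Of the seed storage protein genes 2 were measured and 0 called. RNA integrity can be read from control genes probed at their 3′ and 5′ ends, whose 3′ to 5′ ratio is larger in degraded RNA. For actin it was 6.34 in WT and 9.55 in mhz7 shoots in air and 8.26 in WT and 13.5 in mhz7 shoots in ethylene. The GAPDH ratio was 5.92 in WT and 9.08 in mhz7 in ethylene, while the cyclophilin ratio (2.0 and 2.20) and the ubiquitin ratio (1.38 and 1.73) were closer. For these 4 controls the mhz7 ethylene array had the highest ratio of the 4 shoot arrays, as it had for a second actin control designed on rice (9.53 in WT and 13.3 in mhz7 in ethylene). A rice GAPDH control went the other way, lowest on that array (2.08 and 1.99), and a rice EF1a control was lower in mhz7 than in WT in ethylene (0.165 and 0.154). The part of these ratios in the differences was not tested.

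**Figure D1:**
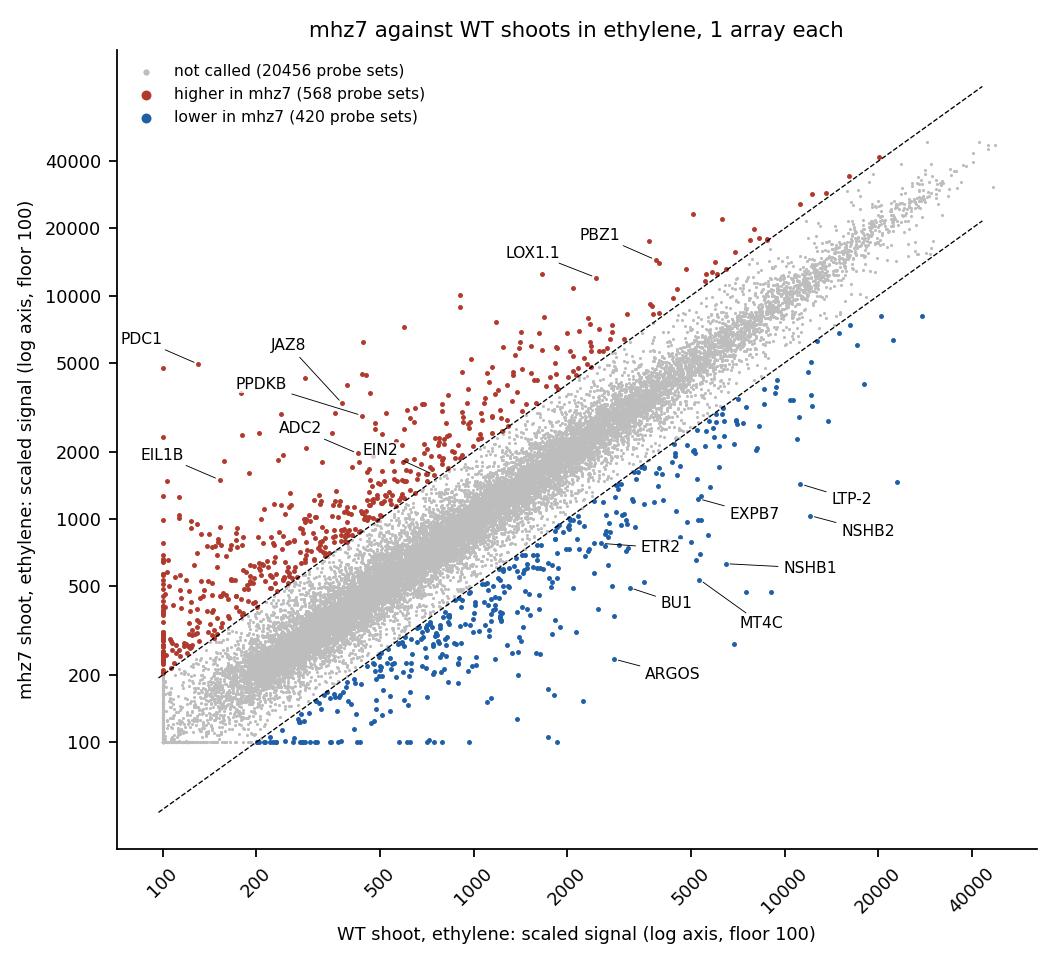
Scaled signals of the 21444 probe sets with a mean of at least 200, WT shoot in ethylene on the horizontal axis and mhz7 shoot in ethylene on the vertical axis (both log, floor 100), 1 array each. Dashed lines mark 2-fold; 568 of these probe sets lie above in red and 420 below in blue, with PDC1 (130.2 against 4936) and ARGOS (2829 against 236) far from the diagonal.

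Within the ethylene pathway some members were called, in either direction, and others differed little. EIN2, the gene listed as MHZ7, gave a signal of 747 in WT and 1574 in mhz7 shoots in ethylene, a difference of 1.07. It was also above WT in shoots in air (859 and 1532), roots in air (1649 and 2792) and roots in ethylene (1064 and 2462). As the nature of the mutation is unknown here, this transcript cannot check the genotype label. EIL1B, which encodes an EIN3-like transcription factor, stood at 152 in WT and 1498 in mhz7, a 9.82-fold difference. In air the same gene gave 617 in WT and 1437 in mhz7. The WT ethylene array was the low one of the 4 shoot arrays, and the 2 mhz7 arrays were close to each other. EIL1A, its neighbour on chromosome 3, was level in the shoot arrays, with 11703 in WT and 11939.6 in mhz7 in ethylene (0.03).

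Of the ethylene receptor genes, ETR2 was the member called. Its signal was 1418 in WT in air, 2566 in WT in ethylene, 739.9 in mhz7 in air and 777 in mhz7 in ethylene, so that mhz7 was 3.30-fold lower in ethylene. The call came from 1 of its 2 probe sets, the brighter. ETR3 went from 1215 in WT to 616 in mhz7 (-0.98), just short of 2-fold, while ERS1 (-0.33) and ERS2 (0.10) differed little. ETR4 read under the floor on all 4 shoot arrays. In total, 2 of 7 measured genes for perceiving and relaying ethylene were higher, 1 was lower and 4 were not called. This stands beside 2.78% higher and 1.98% lower over all measured genes. The list's median difference was 0.03, with members on both sides of 0. Among the ethylene synthesis genes 1 of 4 was called. This was ACS2, an ACC synthase gene, at 87.5 in WT, under the floor, and 225 in mhz7, at least 2.25-fold higher, a call that was lost with a floor of 200. ACO1, which encodes the ACC oxidase of the last step, differed by -0.23 (13823 in WT and 11802 in mhz7).

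Of the 27 gene lists, that of jasmonate synthesis and JAZ repressors had the most members called, all in the higher direction. Jasmonate is a wound and defence hormone made from fatty acids by lipoxygenases, allene oxide synthase and oxophytodienoate reductases, and JAZ proteins repress its responses. Of 27 measured genes, 10 were higher in mhz7 shoots in ethylene, 0 were lower and 17 were not called, beside 2.78% higher and 1.98% lower over all measured genes. The list's median difference was 0.61, against 0 over all measured genes, and 24 of the 27 were above 0. Among the repressor genes, JAZ8 gave 1062 in WT in air, 378 in WT in ethylene, 3825 in mhz7 in air and 3290.2 in mhz7 in ethylene, a difference of 3.12 in ethylene. JAZ13 gave 88.9, 141, 427 and 859 in the same order (2.61). With both genes every mhz7 shoot array was above every WT shoot array.

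JAZ11 and JAZ10 were also higher in ethylene, at 647 in WT against 3125 in mhz7 (2.27) and at 1525 against 5939.7 (1.96). TIFY11A, another JAZ gene, was under the floor in WT (98.5) and gave 308 in mhz7, at least 3.08-fold higher, and its call was lost with a floor of 200. TIFY11A, JAZ11 and JAZ10 follow each other directly on chromosome 3, and JAZ13 and JAZ12 lie 3 genes apart on chromosome 10. Whether probe sets of these related genes read each other's transcripts was not tested. LOX1.1, a lipoxygenase gene, entered the list by its name, and whether it serves jasmonate synthesis was not tested. Its signal was 4054 in WT in air, 2476 in WT in ethylene, 5205 in mhz7 in air and 12050.2 in mhz7 in ethylene. Its difference was 2.28 in ethylene and 0.36 in air, and the mhz7 ethylene array was the high one. The other 4 called members, OPR10, JAZ12, AOS4 and JAZ5, lay between 1.20 and 1.52. The jasmonate receptor genes COI1 (-0.11), COI1B (-0.34) and COI2 (0.04) were not called.

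Most measured genes of diterpenoid phytoalexin synthesis were higher in mhz7 as well. These antimicrobial compounds, the momilactones and phytocassanes of rice, are made from geranylgeranyl diphosphate by copalyl diphosphate synthases, kaurene synthase-like enzymes and cytochrome P450s. Of 9 measured genes, 6 were higher and 0 lower, beside 2.78% and 1.98% over all measured genes. All 9 were above 0, and the median difference was 1.54. CYP71Z7 stood at 150.2 in WT and 788 in mhz7 in ethylene (2.39). In air it gave 595 in WT and 1197 in mhz7, so the ethylene array was the lower of the 2 in each genotype. CYP701A8 had the same order, at 548 and 172 in WT in air and ethylene and 1413 and 866 in mhz7 (2.33 in ethylene).

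The momilactone genes CPS4, CYP99A3, OsMAS, KSL4 and CYP99A2 follow each other on chromosome 4 in steps of 1 or 2 genes. In ethylene CYP99A3 gave 429 in WT and 1792 in mhz7 (2.06), CYP99A2 752 and 2306 (1.62), OsMAS 709 and 2061 (1.54) and CPS4 219 and 609.6 (1.48). KSL4, the synthase between them, was at 0.89, short of a call. In roots in ethylene 2 of them were called in the opposite direction, CYP99A3 at -2.53 and CPS4 at -2.13, while OsMAS was at -0.86, KSL4 at -0.04 and CYP99A2 at 0.14.

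Other defence genes followed in part. Of 13 measured chitinase, PR protein and NPR1-type genes 3 were higher and 0 lower, with a median of 0.54, beside 2.78% and 1.98% over all measured genes. PBZ1, the probenazole-induced PR10 protein gene, gave 12818 in WT in air, 3854 in WT in ethylene, 22343 in mhz7 in air and 14449 in mhz7 in ethylene (1.91 in ethylene). The chitinase gene Cht9 was at 1529 in WT and 4502 in mhz7 (1.56), while in air the genotypes were level (3785 and 4030.5). Cht2 was under the floor in WT in ethylene (90.1) and at 561 in mhz7, at least 5.61-fold higher, with 2 of its 3 probe sets called. Among 10 WRKY and NAC transcription factor genes 2 were higher, WRKY71 (1.23, from 1 of 2 probe sets) and WRKY76 (1.14). The call for WRKY76 was lost with a floor of 200. The list median was 0.35.

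**Figure D2:**
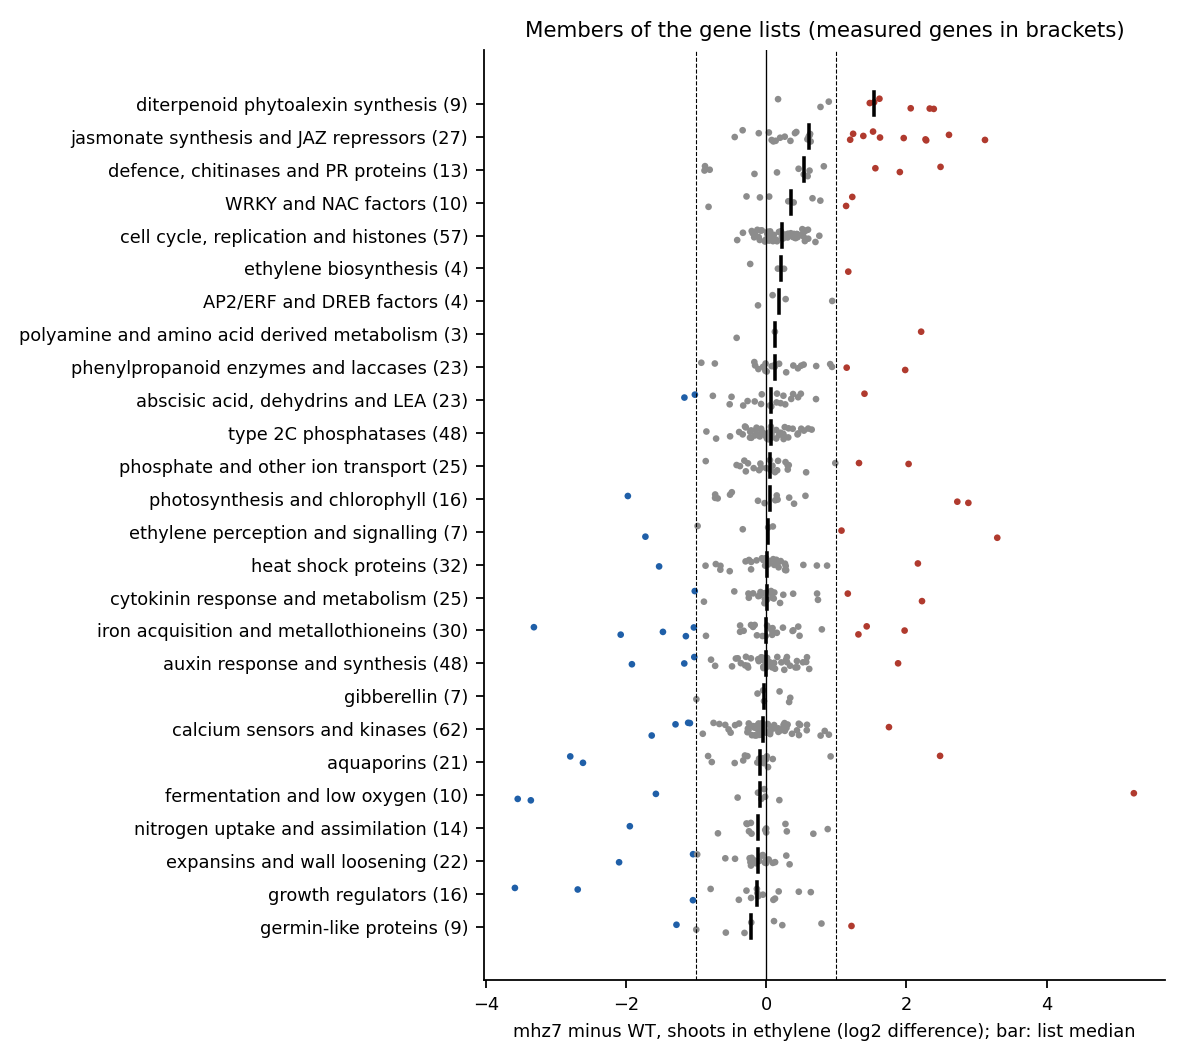
Difference mhz7 minus WT in shoots in ethylene (horizontal axis, log2) for the measured members of 26 gene lists, 1 point per gene, with red higher, blue lower, grey not called and a black bar at the list median. Diterpenoid phytoalexin genes (median 1.54) and jasmonate genes (0.61) lie to the right, and dashed lines mark 2-fold.

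The largest difference above the floor on both arrays belonged to PDC1, which encodes the pyruvate decarboxylase that opens ethanol fermentation. Its signal was 1206 in WT in air, 130.2 in WT in ethylene, 5543 in mhz7 in air and 4936 in mhz7 in ethylene, which made mhz7 37.9-fold higher in ethylene. The WT ethylene array stood far below the other 3. The 2 higher members of the photosynthesis and chlorophyll list encode pyruvate phosphate dikinase, an enzyme of pyruvate metabolism that C4 plants use in carbon fixation. PPDKB gave 438 in WT and 2901 in mhz7 in ethylene (2.73) and 1841 and 3472 in air, and PPDK2 gave 129 and 949.8 in ethylene (2.88). In roots PPDKB was lower in mhz7, by -1.25 in air and -1.59 in ethylene. The chlorophyll a/b-binding protein gene RCABP89 was the lower member of that list, at 8147 in WT and 2075 in mhz7 (-1.97). In that list 13 of 16 genes were not called, beside 2.78% higher and 1.98% lower over all measured genes.

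Of the 9 other measured genes of fermentation and low oxygen, 3 were lower, 0 higher and 6, most of them sucrose synthase genes, not called. Beside them, 1.98% of all measured genes were lower and 2.78% higher. The list's median over all 10 was -0.09. The class 1 haemoglobin gene NSHB2, whose product scavenges nitric oxide under low oxygen, gave 4579 in WT in air, 12078 in WT in ethylene, 2601 in mhz7 in air and 1035 in mhz7 in ethylene, 11.7-fold lower in ethylene. WT was high and mhz7 low in ethylene, and the air arrays lay between them. Its relative NSHB1 had the same order (2556, 6460.2, 1927 and 630.4), but the call rested on 1 of 3 probe sets and the mean over the 3 was -0.87, under 2-fold. Whether the probes of that set also read NSHB2 was not tested. Adh2, an alcohol dehydrogenase gene, was at 2189 in WT and 736 in mhz7 (-1.57) and level in air (1219 and 1324). ADC2, whose product arginine decarboxylase opens a route to polyamines, was higher at 424 in WT and 1964 in mhz7 (2.21), and PXG, a peroxygenase gene, at 235 and 1844 (2.97).

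Genes with a known part in organ growth were among the largest lower ones. ARGOS, whose Arabidopsis namesake promotes organ size, gave 947 in WT in air, 2829 in WT in ethylene, 252 in mhz7 in air and 236 in mhz7 in ethylene. The 2 mhz7 arrays were alike and below both WT arrays, with a difference of -3.58 in ethylene. BU1, a helix-loop-helix gene of brassinosteroid responses, gave 1177, 3174, 297 and 492 in the same order (-2.69 in ethylene). ILI6, another helix-loop-helix gene of leaf inclination, was at 455 in WT and 221 in mhz7 (-1.04) and further apart in air (-1.81). The other 13 of the 16 measured growth regulator genes, including brassinosteroid signalling genes and GRF factors, were not called, and the median was -0.13. Across all measured genes 1.98% were lower.

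Expansins loosen the cell wall during growth. EXPB7, a beta-expansin gene, gave 2099 in WT in air, 5279 in WT in ethylene, 1326 in mhz7 in air and 1233 in mhz7 in ethylene (-2.10), and WT in ethylene was the high array. EXP1, an alpha-expansin gene, was at 7088 in WT and 3439 in mhz7 (-1.04), with the wider gap in air (7785 and 2141, -1.86). These were the 2 lower genes of 22 measured, and none was higher, beside 1.98% lower and 2.78% higher over all measured genes. The auxin list had 1 higher and 3 lower of 48 genes and the cytokinin list 2 higher and 1 lower of 25. Over all measured genes the shares were 2.78% and 1.98%. The list medians were -0.0046 and 0.01. The auxin genes called were the Aux/IAA repressor genes IAA2 (1.88), IAA20 (-1.92) and IAA9 (-1.03) and GH3-8, which encodes an enzyme that conjugates auxin to amino acids (-1.17). Of the cytokinin genes those called higher were LOGL9 (2.22) and LOG (1.16, from 1 of 2 probe sets), and LOGL10 was lower (-1.02). All 3 belong to the family of enzymes that release active cytokinin. No gibberellin gene of 7 was called.

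**Figure D3:**
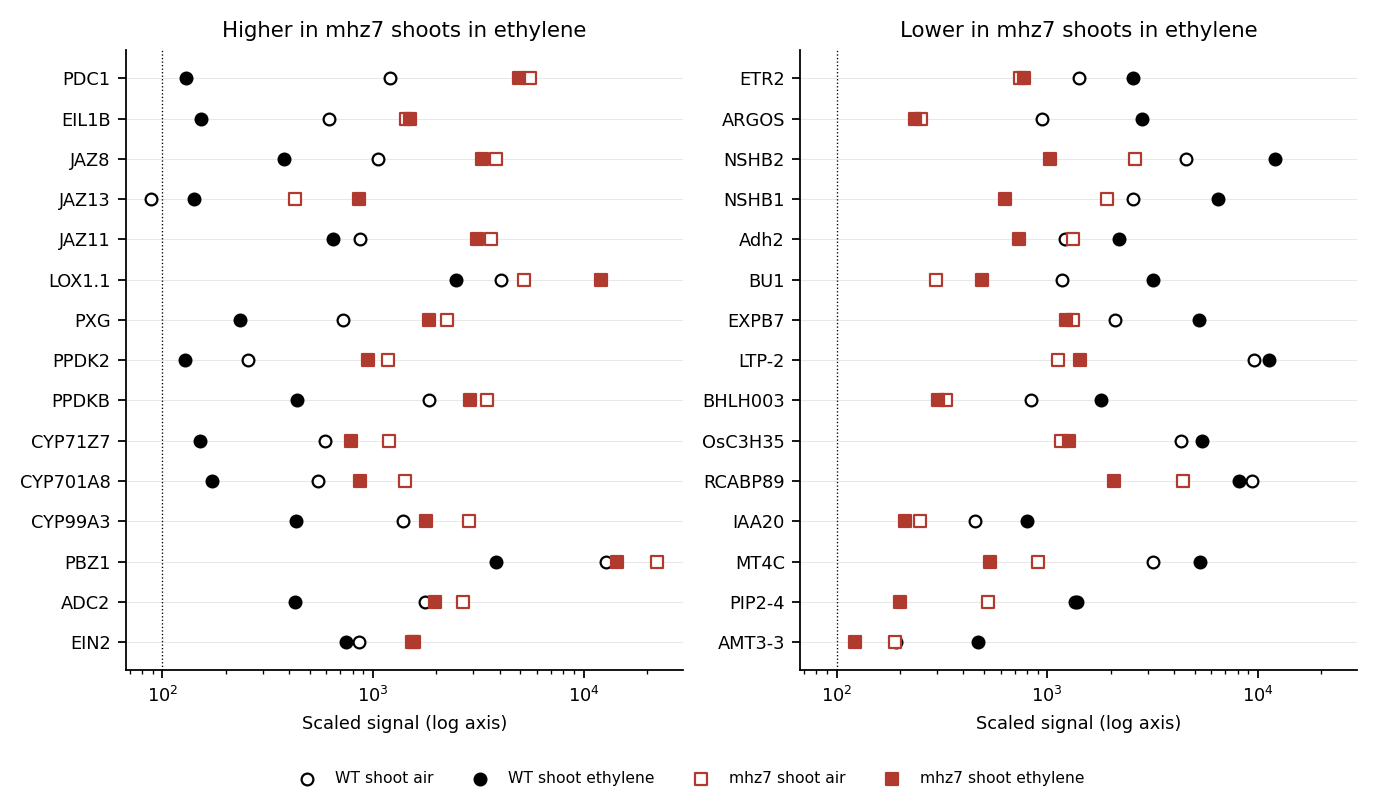
Scaled signals (log axis) of 15 genes higher and 15 lower in mhz7 shoots in ethylene, with circles for WT, squares for mhz7, open symbols for air and filled symbols for ethylene, 1 array each; the dotted line is the floor of 100. For PDC1, EIL1B and JAZ8 the filled circle lies to the left of the other 3 symbols, and for ARGOS, NSHB2 and EXPB7 to the right.

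The lipid transfer protein gene LTP-2 was lower to a like degree in either gas. It gave 9544 in WT and 1126 in mhz7 in air and 11230.3 in WT and 1434 in mhz7 in ethylene, differences of -3.08 and -2.97. The zinc finger gene OsC3H35, with 3 of 3 probe sets called, was at 5402 in WT and 1272 in mhz7 (-2.09, and -1.90 in air). The helix-loop-helix transcription factor genes BHLH003 (1794 and 304, -2.56) and bHLH081 (1515 and 369.8, -2.03) were lower too.

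Most transport and metal genes were not called, as with the array at large, where 2.78% of all measured genes were higher and 1.98% lower. In the iron and metallothionein list both shares were larger than these. Of 30 measured iron and metallothionein genes 3 were higher and 5 lower (median 0.0030), of 21 aquaporin genes 1 and 2, of 25 phosphate and other ion transport genes 2 and 0, and of 14 nitrogen genes 0 and 1. Several called members, most of them lower, were transcripts far brighter in roots. The tonoplast water channel gene TIP2-1 gave 612 in WT and 90.9 in mhz7, under the floor, at least 6.12-fold lower, from 1 of 2 probe sets. The plasma membrane water channel gene PIP2-4 gave 1385 and 199.5 (-2.79). NAS1 (1019.6 and 242, -2.08) and NAS2 (824 and 297, -1.47), nicotianamine synthase genes that adjoin each other on chromosome 3 and serve to make a chelator of iron, and the metallothionein gene MT4C (5323 and 535, -3.31) had the same direction, while a further nicotianamine synthase gene, NAS3, was not called (2147 and 3722, 0.79). These 5 lower genes were over 10-fold brighter in WT roots than in WT shoots in air, as were 23 of the 489 lower and 15 of the 625 higher probe sets, and the root-abundant set as a whole stood at 2.85% of its root signal on the WT and 2.52% on the mhz7 array. MT1B, a metallothionein gene of the same root-bright kind, was higher (395 and 1068, 1.43). What part small amounts of root RNA had in these values was not tested. Outside that set, the ammonium transporter gene AMT3-3 was at 469 in WT and 122 in mhz7 (-1.95) and level in air (191 and 189). On the higher side stood the water channel gene PIP2-7 (104 and 578, 2.48), the potassium transporter genes HAK17 (2.03) and HAK16 (1.32), the metal transporter family gene YSL13 (1.97) and the metallothionein gene MT1A (7983 and 19871, 1.32).

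The counts of the lists that follow stand beside 2.78% higher and 1.98% lower over all measured genes. None of 48 type 2C phosphatase genes and none of 57 cell cycle, replication and histone genes passed 2-fold, although 43 of the 57 were above 0 and their median was 0.22. Of 32 heat shock genes 1 was higher, the heat shock factor gene HSF05 (119 and 532, 2.16), and 1 was lower, HSFA2C (3004 and 1042, -1.53, from 1 of 2 probe sets). The calcium sensor and kinase list had 1 higher member of 62, the calmodulin-like gene CML31 (287 and 968, 1.75), and 4 lower. Of 23 phenylpropanoid genes 2 were higher, the cinnamyl alcohol dehydrogenase gene CAD6 (308 and 1217, 1.98) and the 4-coumarate CoA ligase gene Os4CL2 (1.15). In the abscisic acid and dehydrin list 1 of 23 was higher, RAB16B (1.40), and 2 were lower. For 1 of these 2, Dhn1, the brightest probe set was lower (-1.17) while another of its 3 was called higher, so no direction is given for it.

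Few measured genes have a name (2034 of 13839), and most of the largest differences belonged to genes that the table lists by locus alone. In the higher direction these included LOC4333070 (441 in WT and 6176 in mhz7, 3.81), LOC4344615 (179.7 and 2379, 3.73), LOC4339960 (239.6 and 2943, 3.62) and LOC4325998 (597 and 7254, 3.60). In the lower direction LOC4342395 was at 6883 in WT and 277 in mhz7 (-4.64, from 1 of 2 probe sets). LOC4350133 was at 1734 and 106 (-4.04), LOC4344999 at 7507 and 469 and LOC4349327 at 22961 and 1465 (-3.97). LOC4349327 read 17406 in WT and 30531 in mhz7 roots in ethylene, so its low value was not shared by roots. LOC4346628 and LOC4346629, which adjoin on chromosome 9, were under the floor in mhz7 (97.6 and 27.3) and at 1849 and 748 in WT, at least 18.5-fold and 7.48-fold lower.

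Shoots in air gave the same genotype contrast on 2 other arrays, where 0.714% of the probe sets were called higher and 0.451% lower. Of the 625 probe sets higher in ethylene, 280 were called higher in air too (44.8%, 95% Wilson interval 40.9 to 48.7%, counting error only), 1 was called lower and 344 were not called. Of the 489 lower in ethylene, 200 were also lower in air (40.9%, 36.6 to 45.3%), 2 were higher and 287 were not called. By genes, 350 of the 385 higher and 244 of the 274 lower ones differed more in ethylene than in air, where the same genes had medians of 0.87 and -0.95 against 1.44 and -1.47 in ethylene. The rule chose these genes on their ethylene values, so the smaller air medians carry no test. In turn, 53 of the 221 genes higher in air and 27 of the 149 lower in air were not called in ethylene.

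The genotype difference in ethylene can be read beside the response of each genotype to ethylene, although those responses use the same arrays. LOC4333794 gave 3768 in WT in air, 392 in WT in ethylene, 4138 in mhz7 in air and 3992 in mhz7 in ethylene, and 3 of the 4 signals were alike. Its ethylene minus air difference was -3.26 in WT and -0.05 in mhz7. LOC4327002 showed the opposite order, with 191, 1376, 140.5 and 127, and responses of 2.85 in WT and -0.15 in mhz7. These 2 genes were not called in air. For genes with a name, of which PDC1, EIL1B and ARGOS were called in air too, the responses of WT and mhz7 were -3.21 and -0.17 for PDC1, -2.02 and 0.06 for EIL1B, -2.06 and -0.44 for ADC2, 1.58 and -0.09 for ARGOS, and 1.40 and -1.33 for NSHB2. LOX1.1 moved in opposite directions, by -0.71 in WT and 1.21 in mhz7. LOC4325834 was not called in air (298 in WT and 483 in mhz7) and was at least 9.64-fold lower in ethylene (964 and 82.7).

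**Figure D4:**
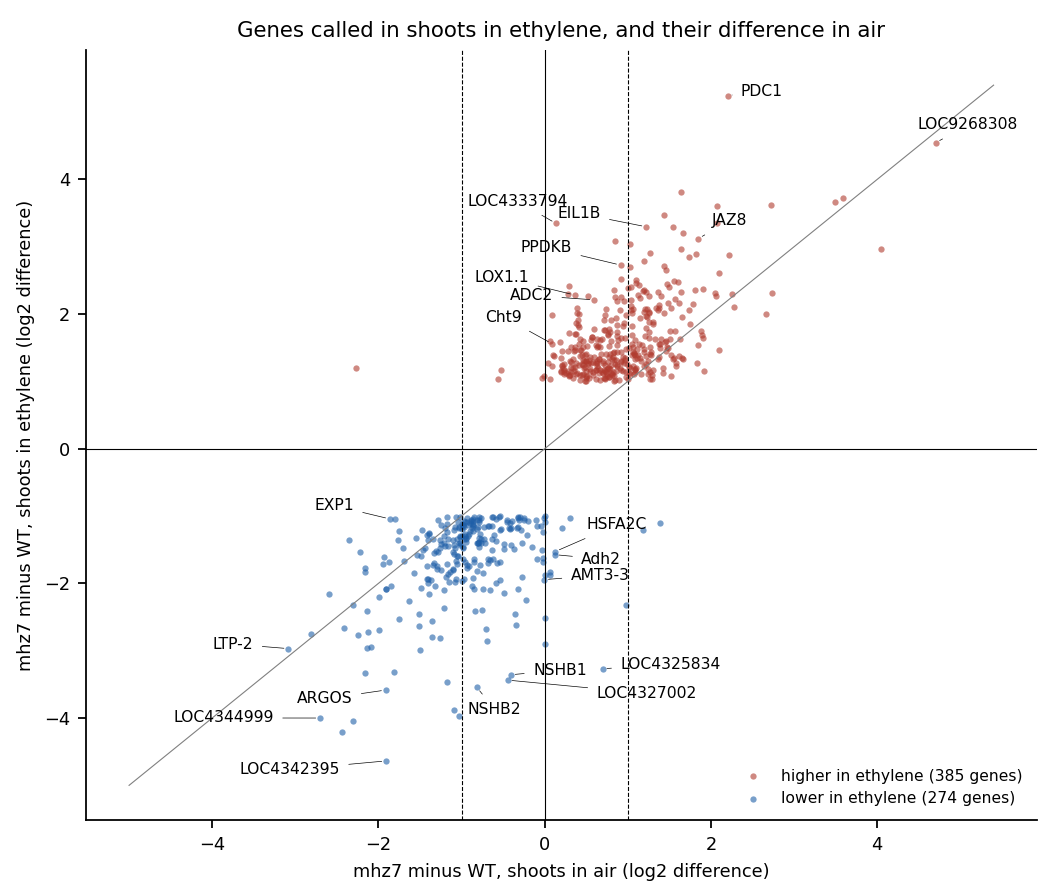
Genes called in mhz7 against WT shoots in ethylene, 385 higher in red and 274 lower in blue, with their difference in ethylene (vertical axis, log2) against the difference in air (horizontal axis, log2, from 2 other arrays). Points farther from 0 than the grey diagonal differed more in ethylene, dashed lines mark 2-fold in air, and PDC1 (5.24 and 2.20) and LOC4333794 (3.35 and 0.14) stand to the upper side.

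A smaller share of these probe sets was called in roots. Some were under the floor on every root array and could not be called there, such as that of PXG (29.1 to 74.4). How many were so was not counted, so a missing call in roots need not be a level transcript. In roots in air, where 0.725% of the probe sets were called higher in mhz7 and 0.643% lower, 149 of the 625 higher probe sets (23.8%, 95% Wilson interval 20.7 to 27.3%) and 57 of the 489 lower ones (11.7%) were called the same way. In roots in ethylene, with 1.31% higher and 1.79% lower over the array, 203 (32.5%) and 141 (28.8%) were, and 50 of the higher and 6 of the lower probe sets were called the opposite way. PDC1 was higher in mhz7 roots in air (3.03) and level in ethylene (-0.35), whereas ARGOS was lower in both (-3.58 and -4.63). Over the 3 other pairs, 80 of the higher and 25 of the lower probe sets were called the same way in all 3, and 237 and 201 in none.

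A limma fit of the genotype difference over the 3 other pairs, with each pair as a block, which leaves 2 residual degrees of freedom, tested the difference on arrays that the ethylene shoot pair did not use. At an adjusted p of 0.05, 5 of 21444 probe sets were higher in mhz7 (0.0233%) and 0 lower (0%). At an unadjusted p of 0.05, 1736 were higher (8.10%) and 1698 lower (7.92%). Of the 568 tested probe sets called higher in ethylene shoots, 288 (50.7%) were among the 1736. Of the 420 called lower, 208 (49.5%) were among the 1698. The tested probe sets were chosen by their mean over all arrays, the compared pair included. Among the 625 higher probe sets 97 had WT at the floor in that pair, and among the 489 lower 60 had mhz7 at the floor. Signals raised to the floor on the other arrays too lose spread. How many of the 288 and 208 were so was not counted, so these shares are not read as independent agreement. The 5 adjusted calls were all among the probe sets called higher in ethylene shoots. LOC9268308 held 2 of them, and its brighter probe set gave an estimate of 4.98 (SE 0.123, limma adjusted p = 0.0254, higher in 3 of 3 pairs). That probe set read 57.6 to 126 over the 4 WT arrays and 2335 to 4218 over the 4 mhz7 arrays, with no overlap, and in ethylene shoots mhz7 was at least 23.4-fold higher.

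LOC4344089 was the next (2.16, SE 0.0852, limma adjusted p = 0.0371), at 917 in WT and 4536 in mhz7 shoots in ethylene, above the floor on every array. The other 2 were probe sets without a gene whose WT signals were all under the floor. For 4 of the 5 calls WT was thus raised to the floor on some or all arrays, which makes the estimate a bound, takes away spread on the WT side and let the probe set pass the filter through its mhz7 signals, so their p values are not read as evidence here. With any 1 of the 3 pairs left out, the fit gave 0 adjusted calls in either direction. LOC4331398 was not called by the fit and was also under the floor in every WT array, and its signal lay between 15.5 and 24.6 on the WT arrays and between 1127 and 2155 on the mhz7 arrays. JAZ10 (1.93), JAZ11 (1.94) and JAZ8 (2.07) had limma adjusted p values of 0.0786, 0.0786 and 0.0796. Other members of their list had larger ones, as JAZ13 (0.157), TIFY11A (0.183) and LOX1.1 (0.213). Genes outside that list had smaller ones without a call, such as LOC4352127 (0.0505), LOC4325944 (0.0572) and CML31 (0.0653). EIN2 itself had an estimate of 0.93 (SE 0.120, limma adjusted p = 0.150).

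Whether a difference was particular to ethylene shoots was tested by the interaction, the ethylene shoot difference minus the mean difference of the 3 other pairs, in a limma fit over the 8 arrays. It gave 0 higher and 0 lower probe sets at an adjusted p of 0.05 (0% each). With 2 residual degrees of freedom and a lone pair that is assumed to vary like the other 3, the fit had little means to call a difference, and no gene is called particular to ethylene shoots here. Among genes above the floor on all 8 arrays, the interaction was 2.10 for EIL1B, 3.62 for PDC1 and -0.21 for ARGOS. These genes were named for their large differences in the same ethylene shoot pair, so the values carry no test. No interaction is given for LOC4333794, LOC4327002 and TIP2-1, which were under the floor on some arrays.

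**Figure D5:**
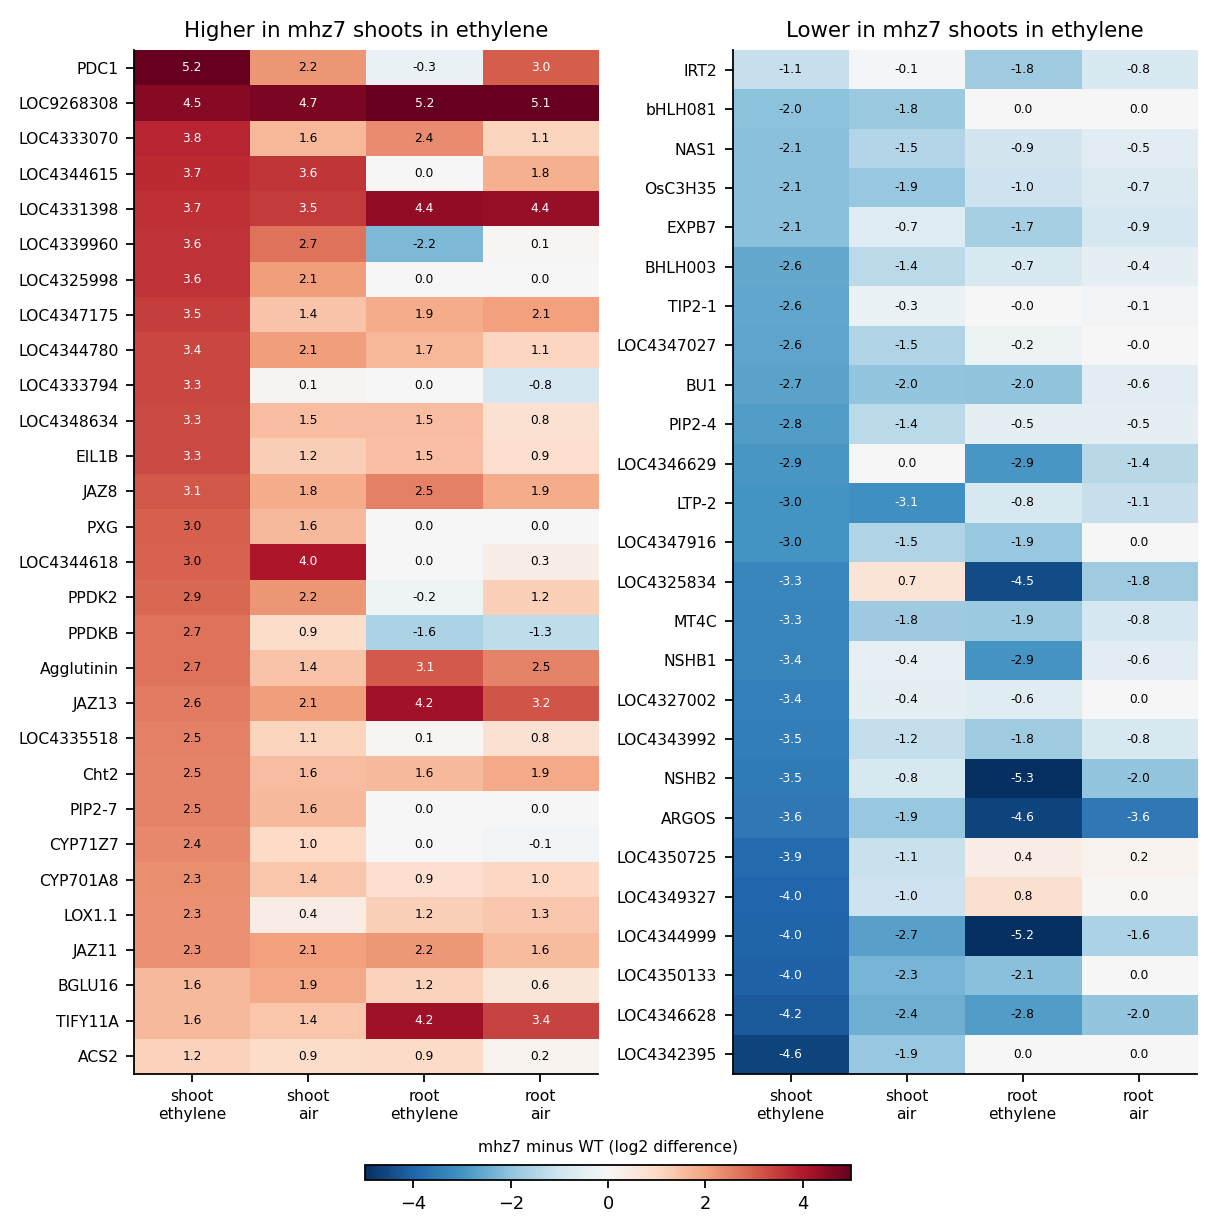
Log2 differences mhz7 minus WT in the 4 tissue and gas pairs (columns, 1 array against 1 each) for the genes with the largest differences or bounds in ethylene shoots, higher at left and lower at right; colours run from -5 (blue) to 5 (red), and each cell prints its value. LOC9268308 and LOC4331398 are high in all 4 columns, and differences of 0 stand where both signals were under the floor, as for LOC4342395 in roots.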

How the data were processed

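Total RNA from roots and shoots was labelled as biotinylated cRNA and hybridized to 1 Affymetrix rice array per condition, per the labels' protocols. For each probe set of an array the authors deposited 1 linear intensity value, made with MAS5 per the submitters' processing notes. The scaling target, the MAS5 version and the detection calls were not given in the sources used here.

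Of 57381 probe sets, 123 controls were set aside. Each array was multiplied to bring its mean without the highest and lowest 2% to 500 (factors 2.0 to 2.1). Signals under 100, which made up 51.5 to 53.1% of each array, were raised to 100 before log2. A call needed a log2 difference of at least 1 in size and a higher signal of at least 200. Where 1 of the arrays compared was under this floor, the fold is a bound ("at least"). Precision is limited by how few arrays there are, and nothing says how many cultures lie behind an array.

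The array's gene table gave 1 gene for 22436 probe sets, and names came from the symbols and synonyms of the RefSeq table of ASM3414082v1, used for names and gene order only; 2446 of 17905 genes carry a name. The brightest probe set stands for a gene. The 27 gene lists were set by name patterns, with wrong matches taken out, and ACC2 was dropped from ethylene synthesis after its values had been seen because its name is ambiguous. The compared pair, the lists and the tests were chosen with earlier results of these data known.

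Genes named were taken from the 10 largest in each direction above the floor, the 12 largest with a name, the 5 largest bounds (overall and with a name), up to 6 called members of a list, the 8 smallest adjusted p of each fit in each direction, and EIN2, receptor, EIL, ACO and ACS genes. Not every gene of these groups is described, those of the fits least of all. OPR10, JAZ12, AOS4, JAZ5, KSL4, NAS3, COI1, COI1B and COI2 lie outside that rule and were chosen after their values were seen.

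Fits used limma 3.58.1 in R 4.3.3 on 21444 probe sets with a mean signal of at least 200, with tissue and gas as a block, moderated variances and Benjamini-Hochberg adjusted p under 0.05, and were tested on simulated data, where the interaction recovered none of the changes put in. The alternatives were other scalings, floors, thresholds, filters and choices of probe set, empirical Bayes with trend and robust, all 4 pairs, and leaving out each pair. Python 3.11.15, numpy 2.4.6 and pandas 2.3.3 gave the other values.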

Additional observations from a re-analysis of the deposited data

How the results depend on the processing

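With 1 array per condition no difference in ethylene shoots has a replicate check, and low signals limit what bounds can show. Under 3 other scalings, a floor of 200, a higher minimum signal of 500 and without root-bright probe sets, the counts of called probe sets stayed within 1.5 times 625 and 489. A floor of 50 and no floor gave 625 and 489 again by construction. A call needs a signal of at least 200, so lowering the floor under 100 cannot change it. The share of calls in the higher direction lay between 54.6 and 57.6% over every alternative. At 3-fold 251 probe sets were higher and 185 lower, and with 1 probe set per gene 411 and 307, as fewer could pass by construction; the share called in the same direction in shoots in air, 43.1%, was 23.9% at 3-fold. For the genotype over the 3 other pairs, the higher calls (5) became 0 with a floor of 200, 10 with no floor, 2 with no filter on low signals, 9 with trend and robust and 190 with all 4 pairs, which includes the compared arrays, and were 0 to 0 with each pair left out in turn. Its lower calls (0) became 1 with no filter and 120 with all 4 pairs. The interaction (0 and 0) gave 140 higher and 122 lower with no filter on low signals, and 0 and 0 otherwise. Except where stated, the cause of these changes was not tested. Of the named genes' values under alternatives, 745 kept direction and call. Among them were 108 with a floor of 50 and 108 with no floor, whose calls those floors could not change. Another 8 kept direction and lost the call, most of them (6) with a floor of 200, and Dhn1 reversed from -1.17 to 0.38 with the mean over its probe sets. Replicate numbers are not given in the labels; the genotype fits take the tissue and gas pair as the block.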

Other observations

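Among genes not described above, Agglutinin, named as the gene table lists it, was under the floor in WT shoots in ethylene (55.4) and at 659 in mhz7, at least 6.59-fold higher. In roots in ethylene it was at 95.1 in WT, also under the floor, and 832 in mhz7. The beta-glucosidase gene BGLU16 read 42.2 in WT and 311 in mhz7 shoots in ethylene, at least 3.11-fold higher, with 1 of its 2 probe sets called, and that call was lost with a floor of 200. Germin-like genes, which encode secreted cell wall proteins, went both ways, with GER1 at 12223 in WT and 28412 in mhz7 (1.22) and GLP2 at 247 and 102 (-1.28). GLP2 was over 10-fold brighter in WT roots than in WT shoots in air, and its call, from 1 of 2 probe sets, was lost with a floor of 200. The CBL-interacting protein kinase genes CIPK25 (1455 and 593, -1.29) and CIPK16 (701 and 324, -1.11) and the calmodulin-like genes CML5 (865 and 279, -1.63) and CML11 (2093 and 984, -1.09) were the 4 lower members of the calcium list. The iron transporter gene IRT2 was at 221 in WT and under the floor in mhz7 (73.9), at least 2.21-fold lower, a call likewise lost with a floor of 200.

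LOC4344615 and LOC4344618, which lie 2 genes apart on chromosome 8, were both higher in mhz7 shoots. LOC4344615 gave 503 in WT in air, 179.7 in WT in ethylene, 6048 in mhz7 in air and 2379 in mhz7 in ethylene. LOC4344618 gave 144, 85.0, 2389 and 779 in the same order, at least 7.79-fold higher in ethylene. For both the mhz7 air array was the high one of the 4.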
